A study of Mus musculus with 4 samples.

Results

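The Notch genes described here are 10 named members of one signaling pathway in mouse hair follicle stem cells (HF-SCs): the receptors Notch1, Notch2 and Notch3, the ligands Jag1, Jag2 and Dll1, the DNA-binding partner Rbpj, and the target genes Hes1, Hey1 and Heyl. They were chosen by symbol, and a member had to have a mean normalized read count above 0. All 10 of 10 did, among 17044 genes above 0 in a table of 24421 genes. Bulk RNA-seq was performed on FACS-purified HF-SCs from back skin, with 2 Ctrl and 2 miR-205 inducible libraries. Cells were collected at P44 after doxycycline chow from P42, which gave 2 d of induction during telogen, the resting phase of the hair cycle.

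The miR-205 inducible mice carried a pTRE2-miR-205 transgene driven by Krt14-rtTA, a doxycycline-dependent activator under the keratin 14 promoter. Mice of both groups carried Krt14-H2BGFP, so GFP marked cells with an active keratin 14 promoter, and live cells high in GFP, integrin α6 and CD34 and negative for Sca1 were sorted. The labels give the strain as C57BL/6, whereas the transgene was first injected into FVB mice and several lines were made. The line used for these libraries is not given in the sources used here. The treatment label of the Ctrl libraries reads untreated, whereas the protocol and the methods state that both groups received doxycycline. Nothing in the labels says whether a library came from 1 mouse or from several.

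Notch is a receptor that is cut when a ligand on a neighboring cell binds it. The freed intracellular part enters the nucleus and joins RBPJ on DNA, where target genes of the Hes and Hey families, which encode transcriptional repressors, are then transcribed. In skin the pathway is known for its part in the differentiation of suprabasal cells and in the fate of hair follicle cells. miR-205 is a microRNA abundant in skin epithelium that lowers the output of mRNAs it pairs with through its seed.

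The microRNA that was induced is shown first because its seed sets which letters were searched in the Notch mRNAs. RefSeq places mature mmu-miR-205-5p at chr1:193507503-193507524 on the minus strand of GRCm38.p6. Capitals mark the seed, bases 2 to 8.
mmu-miR-205-5p: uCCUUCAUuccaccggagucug

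The seed pairs with ATGAAGG in an mRNA. The longest annotated 3'UTR of 1 of the 10 members, Notch2, held these 7 letters, against 11.7% of 15136 genes with a 3'UTR. The 3'UTRs were read from NCBIM37 with GENCODE vM1, on the strand of the mRNA only. The Notch2 match lies at chr3:97952390-97952396 on the plus strand, in exon 34 of 34. It starts 1023 bases after the stop codon in a 3'UTR of 2923 bases, and among genes with a 3'UTR of 1000 to 4000 bases the share with a match was 16.6%. The match is shown in capitals with its flanks, since it is the longest seed match found in a Notch 3'UTR.
Notch2 3'UTR, 7-base match: tgatccagcagATGAAGGtactcttggct

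The shorter match TGAAGG, which pairs with bases 2 to 7 and lies within the longer one, was present in 4 of 10 members, against 36.4% of the same genes. Besides Notch2 these were Jag1, at chr2:136908057-136908062 on the minus strand in exon 26 of 26, Hes1, at chr16:30067871-30067876 on the plus strand in exon 4 of 4, and Hey1, at chr3:8663892-8663897 on the minus strand in exon 5 of 5. Notch2 held the 6-base form 3 times, 1 of them inside its 7-base match. The others start 60 and 2468 bases after the stop codon. The one at 2468 is followed by an A, as in the 8-base form. The Hes1 match starts 357 bases after the stop codon, near the end of a 3'UTR of 368 bases. The sites of Jag1, Hes1 and Hey1 are shown with the match in capitals, because these genes are a ligand and the 2 targets with the higher levels.
Jag1 3'UTR, 6-base match: gtgtttagaatTGAAGGtttttgatagt
Hes1 3'UTR, 6-base match: taataaaagagTGAAGGctttta
Hey1 3'UTR, 6-base match: gagcagtgaggTGAAGGgagaaaggtgt

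No member held the 8-base form ATGAAGGA, which 4.22% of genes held. In coding sequence, ATGAAGG occurred 1 time in Notch1 and 2 times in Notch2. The coding sequences of 19.8% of genes held it, and 65.3% of those over 5000 bases, among which both genes fall. The 3'UTRs of Notch1, Notch3, Jag2, Dll1, Heyl and Rbpj held neither the 7-base nor the 6-base form. These matches are letters in a reference sequence. No measurement of miR-205 binding was analysed here. The paper captured mRNAs joined to miR-205 by CLEAR-CLIP and lists Notch1, Notch2, Jag1, Hes1 and Dll1 among those bound. Of these, Notch1 and Dll1 held neither form in the longest annotated 3'UTR, though Notch1 held the 7-base form in its coding sequence. The lack of a match in that 3'UTR therefore does not mean a lack of binding.

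**Figure D1:**
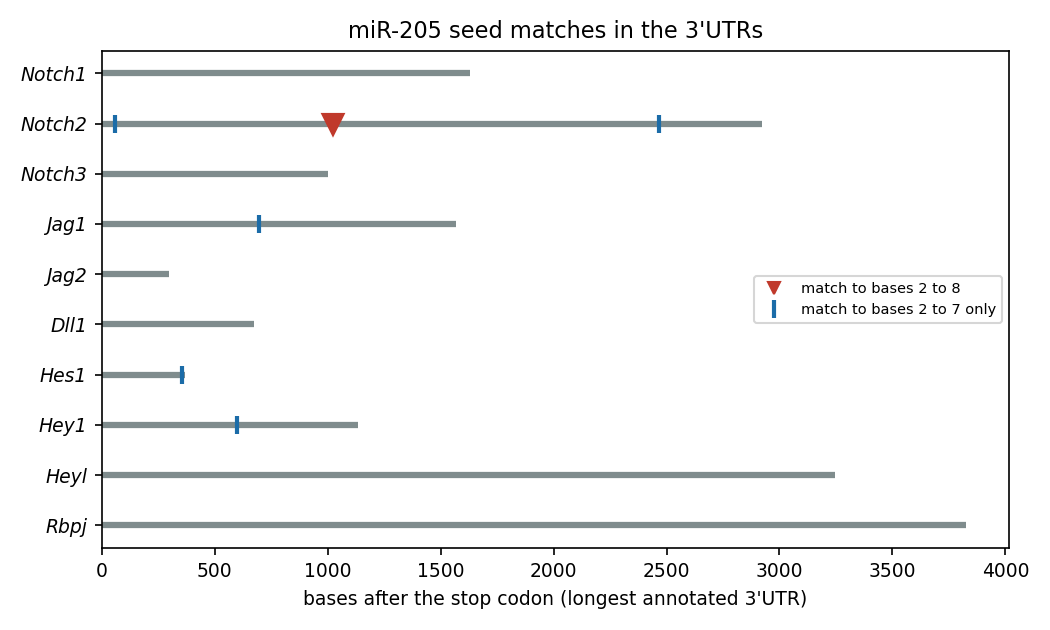
The longest annotated 3'UTR of each of the 10 genes, as a bar in bases after the stop codon, with a triangle for a match to bases 2 to 8 of miR-205 and a tick for a match to bases 2 to 7 only. The only triangle is on Notch2, 1023 bases after the stop codon, and 4 of the 10 genes have a match of either kind.

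The deposited expression value of each gene is its mean over the 4 libraries of both groups after division by size factors, so a level given as the authors' mean has no SD. The 10 Notch genes made up 0.147% of the sum of the means of all genes. All 12 of 12 genes of the HF-SC marker list were detected, at means from 1046 for Tcf3 to 146090 for Krt5. Cd34 was at 14575, Krt15 at 119883 and Lgr5 at 4432. The list is not particular to HF-SCs, as the paper used Krt5, Krt14 and Cdh1 to mark epithelial cells. Tcf3 and Tcf4 were taken by symbol alone, which does not show that they mark HF-SCs. Cd34 and Itga6 encode surface proteins that the sort itself used. Markers of other cells were also present, at means from 116 for Ivl to 7246 for Krt10 among 4 suprabasal genes. The range was 39.5 for Pdgfra to 5186 for Col1a1 among 4 fibroblast genes. Among 4 myeloid genes it was 87.6 for Ptprc to 2744 for Cd74, and among 3 sebaceous genes 35.5 for Awat1 to 3085 for Scd1. The 3 melanocyte genes ran from 219 for Tyrp1 to 498 for Dct. Means were no higher than 53.3 in the mural and endothelial lists. In bulk RNA of this kind, fewer cells of a type and less RNA per cell cannot be told apart.

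Jag1 and Jag2 had the highest levels of the 10 genes. To compare genes, each mean was divided by the length of the gene's exons in kilobases (kb). Per kb, the order was Jag1, Jag2, Notch1, Rbpj, Hes1, Notch2, Dll1, Notch3, Hey1 and Heyl, over a range from 1243 to 0.603 normalized counts per kb. Of the 45 pairs of genes in this order, 44 kept their order when the longest protein-coding transcript was used as the length. The exception was Rbpj and Hes1, whose ratio was 1.21 per kb of exon and 0.914 per kb of the longest transcript.

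**Figure D2:**
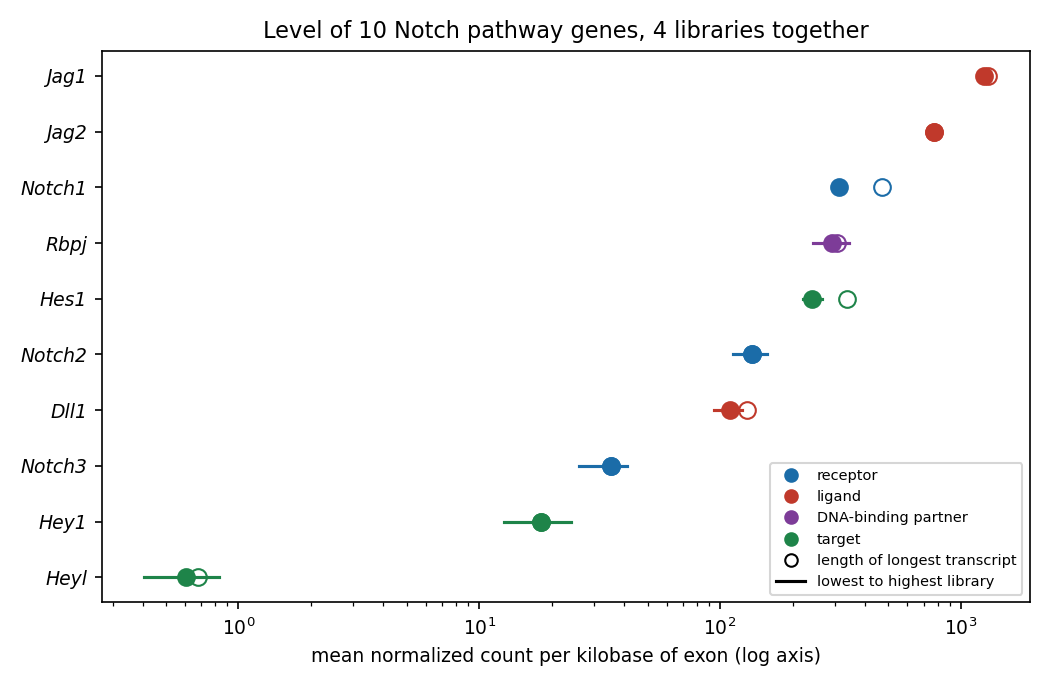
Mean normalized count per kilobase of exon for each of the 10 genes on a log axis, over the 4 libraries of both groups; open circles use the longest transcript, and lines run from the lowest to the highest library where library counts could be found. Levels run from 1243 for Jag1 to 0.603 for Heyl, and Rbpj and Hes1 change places between the lengths.

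Among the receptors, Notch1 was the most abundant. Its authors' mean was 4449, above 97.2% of the genes above 0, and its level was 313 normalized counts per kb. Notch1 lies at chr2:26313423-26372183 on the minus strand of NCBIM37. Its exons together span 14232 bases and its longest protein-coding transcript 9488, so its level was 469 per kb on the transcript length. Notch2, at chr3:97817461-97954290 on the plus strand, had a mean of 1427 and a level of 136 per kb. Notch3, at chr17:32257765-32303825 on the minus strand, had a mean of 283 and a level of 35.1 per kb, at the 48.1th percentile of levels per kb. Of the receptor level per kb, Notch1 made up 64.6%, Notch2 28.1% and Notch3 7.26%. Notch1 exceeded Notch2 2.3-fold per kb of exon and 3.45-fold per kb of the longest transcript.

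The ligands were dominated by the Jagged family. Jag1, at chr2:136907192-136942380 on the minus strand, had a mean of 7243, above 98.5% of genes above 0. Jag2, at chr12:114146801-114167706 on the minus strand, had a mean of 3128 and a level of 772 per kb. Dll1, a ligand of the Delta-like family at chr17:15504318-15513836 on the minus strand, had a mean of 463 and a level of 110 per kb. Jag1 made up 58.5% of the ligand level per kb, Jag2 36.3% and Dll1 5.17%. Jag1 exceeded Jag2 1.61-fold and Dll1 11.3-fold per kb of exon.

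Rbpj, which encodes the protein that carries the Notch intracellular part onto DNA, lies at chr5:53947018-54048684 on the plus strand and had a mean of 1702, or 293 per kb. Hes1, at chr16:30064470-30067882 on the plus strand, had a mean of 493 and a level of 242 per kb. Hey1, at chr3:8663362-8667039 on the minus strand, had a mean of 39.5 and a level of 18 per kb. Heyl, at chr4:122910799-122927118 on the plus strand, had a mean of 3.08 and a level of 0.603 per kb. Hes1 thus made up 92.9% of the level per kb of the 3 targets and exceeded Hey1 13.5-fold. Reads of Rbpj could be shared with processed copies of the gene elsewhere in the genome, which the table does not resolve.

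The core letters bound by RBPJ, TGGGAA or on the other strand TTCCCA, were searched in RefSeq promoters of 300 bases, 250 before and 50 after a start site on GRCm38.p6. The promoter table matched 7 of the 10 members, all but Hes1, Hey1 and Heyl, with 9 promoters. The letters occurred in 2 of these 9 promoters, both of Rbpj itself, against 25.6% of 32851 promoters. The first match lies at chr5:53590197-53590202 and the second at chr5:53590281-53590286. The first is 149 bases before the upstream start site of Rbpj, and the second is 65 bases before the same site and also falls in the promoter of the downstream start site. They are shown in capitals because they fall in the promoters of the factor's own gene. Both are letters in a reference sequence, and binding of RBPJ to them was not measured.
Rbpj promoter, TGGGAA: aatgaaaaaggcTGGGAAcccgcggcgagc
Rbpj promoter, TTCCCA: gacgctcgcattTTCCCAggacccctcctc

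Values of single libraries were not a column of the deposited table, but for 7 of the 10 genes they followed from the mean. The mean is written to 15 significant digits, and only 1 set of whole-number read counts in 4 libraries gave the mean of each of Notch2, Notch3, Dll1, Hes1, Hey1, Heyl and Rbpj, if each library lies within 4-fold of the mean. For the means of Notch1, Jag1 and Jag2, 20, 77 and 7 sets were possible, so no library values are given for them. The libraries are named A to D by their size factors of 0.716, 0.966, 1.18 and 1.24. No label ties a library to Ctrl or to miR-205 inducible, so libraries A to D are not assigned to a group and the groups were not compared. The spread over A to D holds any difference between the groups as well as that between replicates, and is no replicate error. Whichever 2 libraries were induced, the ratio of the 2 group means cannot exceed the ratio of the highest to the lowest library, given below for each gene.

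Notch2 had normalized counts of 1442 in library A, 1434 in B, 1187 in C and 1645 in D, from 1033, 1386, 1399 and 2034 reads. Library C was the low one and D the high one, with A and B between them. The highest exceeded the lowest 1.39-fold. The coefficient of variation (CV) over the libraries was 13.1%, which was 4.91 times the spread of counting alone and higher than in 74.3% of 1846 genes of like mean. Genes of like mean are those within 2-fold that had 1 set of library counts. For Notch2 and Rbpj nearly all of these had a mean under 2000, so their comparison leaves out most genes with a higher mean and those with several sets. Without library C the CV was 7.92%. A tolerance 3 times wider left 3 possible sets for Notch2, so its library values are less certain than those of the genes with lower means.

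Notch3 had normalized counts of 209 in A, 330 in B, 323 in C and 268 in D, from 150, 319, 381 and 331 reads. Library A was lowest, and B and C were nearly level. The highest exceeded the lowest 1.58-fold, and the CV of 19.9% was higher than in 87.3% of genes of like mean. Without library A the CV was 11.2%. Notch3 is also known as a receptor of mural cells, which surround vessels. The 3 mural markers, of which Rgs5 was under a mean of 10 and none at 0, summed to 48.9 in A, 123 in B, 130 in C and 100 in D, lowest in the same library as Notch3. Library A was also lowest for 5 of the other 7 marker lists (suprabasal, sebaceous, myeloid, melanocyte and endothelial). Their part in the Notch3 values was not tested.

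Dll1 was the ligand with library values. Its normalized counts were 469 in A, 519 in B, 398 in C and 467 in D, from 336, 502, 469 and 577 reads. Library B was highest and C lowest, by 1.31-fold. The CV was 10.8%, against a median of 9.9% for genes of like mean, and 6.16% without library C.

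Rbpj had normalized counts of 1945 in A, 1414 in B, 1456 in C and 1993 in D, from 1393, 1366, 1716 and 2464 reads. Libraries A and D were high, B and C were low, and the lower of the high pair exceeded the higher of the low pair 1.34-fold. The highest exceeded the lowest 1.41-fold. The CV of 18.2% was 7.42 times the spread of counting alone, the largest such multiple among the 7 genes, and was higher than in 87.1% of genes of like mean. The 3 myeloid and Langerhans markers with library values, of 4 in the list and none at 0, summed to 539 in A, 946 in B, 1090 in C and 547 in D. Lyz2 and Ptprc were low in the libraries where Rbpj was high, whereas the Langerhans cell gene Cd207 was lowest in C, at 189, and was at 256 in D and 324 in B. Cd74, the most abundant of the list, has no library values. Their part in the Rbpj values was not tested. A tolerance 3 times wider left 4 possible sets for Rbpj, and a limit of 10-fold around the mean left 2.

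Hes1 is a repressor and a common readout of Notch activity. Its normalized counts were 539 in A, 525 in B, 448 in C and 462 in D, from 386, 507, 528 and 571 reads. Libraries A and B were above C and D, and the highest exceeded the lowest 1.2-fold. The CV of 9.15% was the lowest of the 7 genes, 2.01 times the spread of counting alone and higher than in 45.2% of genes of like mean. Without library C it was 8.07%, above that of Dll1 and Notch2.

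Hey1 had normalized counts of 27.9 in A, 52.8 in B, 31.4 in C and 46.1 in D, from 20, 51, 37 and 57 reads. Libraries B and D were above A and C, by 1.89-fold between the highest and the lowest. The CV was 29.9%, against a median of 25.6% for genes of like mean, and was 1.86 times the spread of counting alone. Hey1 is also expressed in endothelial cells. The 2 endothelial markers with library values, of 3 in the list and none at 0, summed to 33.5 in A, 77.6 in B, 56.8 in C and 46.9 in D. They were lowest in A and highest in B, as were Hey1 and the suprabasal and melanocyte lists, but were higher in C than in D, unlike Hey1. Their part in the Hey1 values was not tested.

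Heyl had 2, 2, 5 and 4 reads in libraries A to D, which gave normalized counts of 2.79, 2.07, 4.24 and 3.23. The 13 reads in all have an exact Poisson 95% interval of 6.92 to 22.2, which covers counting error only. The spread over libraries was 0.512 times that of counting alone, so no difference between libraries was detectable at this depth.

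**Figure D3:**
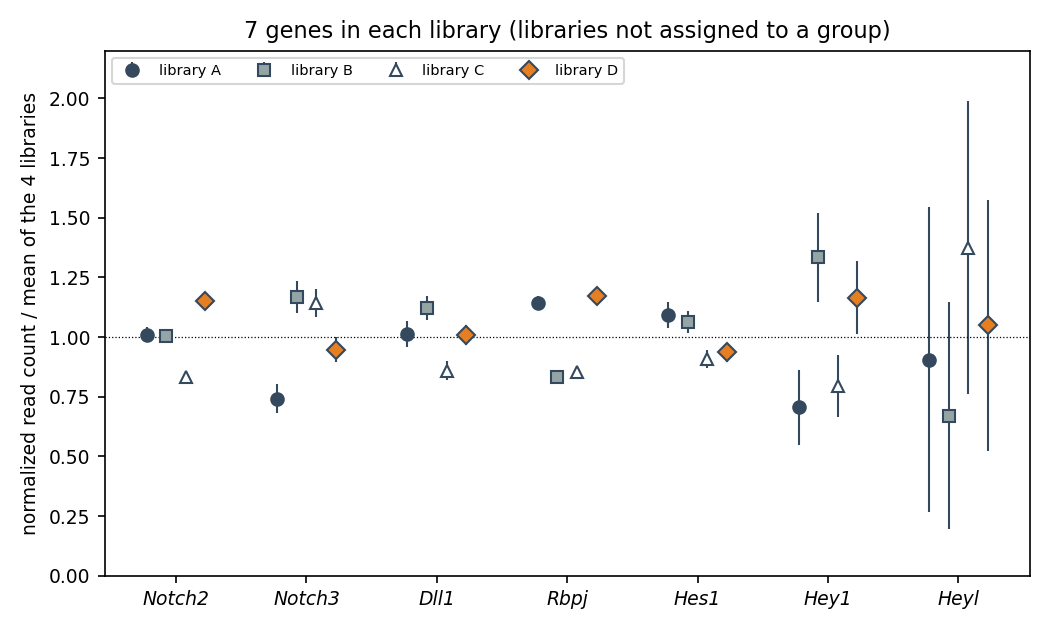
Normalized read count of 7 Notch genes in each of libraries A to D, divided by the gene's mean over the 4 libraries; bars are 1 counting SD, and the libraries are not assigned to a group. Rbpj splits into A and D above its mean and B and C below it, the points of Hes1 lie close together, and Heyl has the widest counting error.

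Over the 7 genes, the CV was above the median of genes of like mean in 5 and below it in Hes1 and Heyl. The SD exceeded 2 times the counting SD in 5 of the 7, all but Hey1 and Heyl. Of genes of like mean, 74.4% passed the same threshold for Notch2, 43.6% for Notch3, 52.8% for Dll1, 54% for Hes1 and 76.9% for Rbpj, so passing it is common at these means. That threshold was set after the library values had been seen, and Hes1 passed it at 2.01. The count was 3 without library C and 6 without library D.

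Neighbors in the order of level per kb could be set beside each other where both had library values. Rbpj ranged from 243 to 343 per kb and Hes1 from 220 to 265, so their ranges overlapped. Within single libraries, Hes1 was above Rbpj per kb of exon in B only, but the order of their means reversed on the longest transcript. The range of Notch2, 113 to 157, overlapped with that of Dll1, 94.3 to 123, but within each library Notch2 was above Dll1 per kb of exon. Hes1 did not overlap with Notch2, Dll1 did not overlap with Notch3 at 26 to 41, and Notch3 did not overlap with Hey1 at 12.7 to 24. Heyl, at 0.405 to 0.83 per kb, was below all the others. Notch1 at 313 per kb of exon lay within the range of Rbpj. On the longest transcript Notch1 was at 469 per kb and Rbpj at 307. All these library ranges and orders use exon length, and those of close neighbors depend on that choice.

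**Figure D4:**
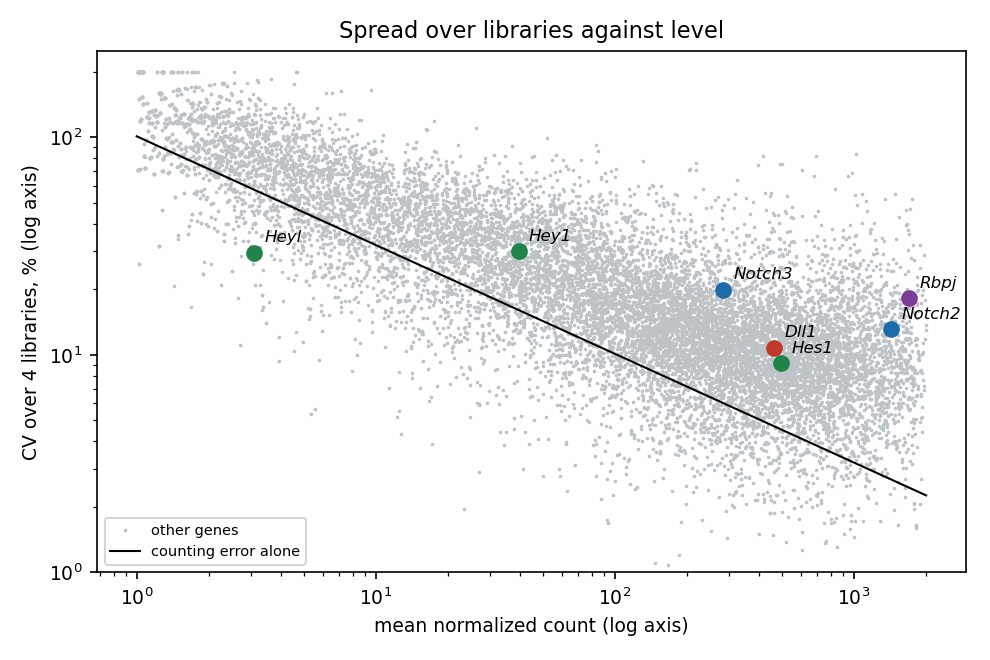
CV over the 4 libraries of both groups against the mean normalized count, both on log axes, for 13735 genes with a mean from 1 to 2000 and 1 set of library counts; the line is the CV of counting alone and the 7 Notch genes are named. Rbpj, Notch2 and Notch3 lie in the upper part of the cloud at their means, Hes1 and Dll1 near its middle, and Heyl under the line.

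Of 54 other genes of the pathway, 48 had a mean of at least 10. Of the other receptors and ligands, 4 of 5 passed this floor. Dlk2 was highest of them at 54.1 per kb, between Dll1 and Notch3, and Notch4 was lowest at 1.54. Dlk1, a noncanonical ligand, was at 27.2 per kb and Dll4 at 3.2, while Dll3 had a mean of 1.04 and did not pass. Glycosyltransferases modify the Notch extracellular part, and 4 of 5 passed. Lfng, a Fringe enzyme, was highest of these at 260 per kb, followed by Rfng at 116 and Poglut1 at 61.8, with Pofut1 lowest at 42.7. Mfng, with a mean of 3.76, did not pass.

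The enzymes that cut Notch were all present, with 9 of 9 proteases above the floor. Aph1a and Psenen, subunits of the γ-secretase complex, were highest at 550 and 510 per kb. Psen2 was lowest at 12.1, with Aph1b at 29.3 and Adam17 at 70.7. Among genes of endocytosis and turnover, 13 of 14 passed. Dtx3 was at 545 per kb, Numb, which encodes an inhibitor of Notch, at 224 and Mib2, a ubiquitin ligase for ligands, at 137. Dtx4 at 4.43, Neurl1a at 8.09 and Dtx3l at 11 were the lowest that passed, and Dtx1 with a mean of 1.18 did not.

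All 13 of 13 nuclear cofactors passed the floor. Ctbp1, which encodes a corepressor, was highest at 727 per kb, and Snw1 was at 265. Tle1 at 91.5, Tle3 at 99.8 and Kdm5a at 100 were the lowest. The coactivator genes Maml1, Maml2 and Maml3 were at 224, 126 and 115 per kb. Of 8 further genes listed as targets, 5 passed. Whether Notch drives these genes in HF-SCs was not tested. Cdkn1a, a cell cycle inhibitor, and Myc had levels of 3601 and 2847 per kb, above all 10 members, and Ccnd1 was at 261. Nrarp, a feedback inhibitor of Notch, was at 157 and Hes6 at 63.7. Hes7 and Hey2 had means of 3.47 and 2.48, and Hes5 had 0 reads, which allows a mean of up to 0.732.

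Library values were found for 40 of the 48 genes that passed. Their CVs ran from 2.7% for Ctbp1 to 59.7% for Dtx4, with a median of 12.4%. Nrarp had a CV of 20% and a ratio of 1.51 between the highest and the lowest library, whereas Numb had 9.65% and 1.21.

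**Figure D5:**
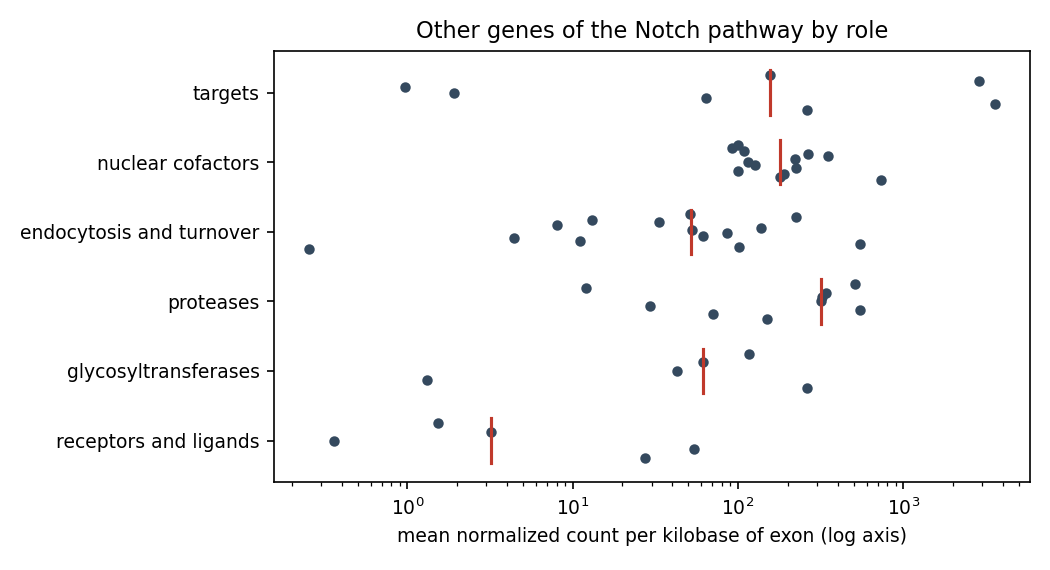
Mean normalized count per kilobase of exon for the other pathway genes by role, on a log axis and over the 4 libraries of both groups; each point is a gene, including those under the floor, and the red line is the median of the points drawn. Nuclear cofactors lie between 91.5 and 727 per kb, while the other receptors and ligands lie at or under 54.1.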

How the data were processed

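HF-SCs were sorted from back skin and RNA-seq libraries were made with a directional kit. Reads of 150 nt, sequenced in pairs, were mapped by the authors (HISAT2 2.1.0, SAMtools 1.3.1), counted per gene (HTSeq) and compared between groups (DESeq2, default settings). Their build is named both NCBI37 and mm10, which differ. The sources used here name no annotation, strand setting or version of the comparison tool. The deposited table holds 1 signal per gene, the mean by the authors of normalized counts over 4 libraries. Its 5 columns of the comparison (log2 fold change, its standard error, statistic, p-value and adjusted p) were not used, and it has 0 columns of per-sample values. No test between groups was therefore run and no p-value is given.

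Library counts were computed here from the means. The value of 1 read in each library came from the 4 most frequent means above 0, refined by least squares over genes with a mean under 1000. Every set of whole numbers within the rounding of the 15th digit, widened 1.25 times, and within 4-fold of the mean was listed by lattice reduction. Under a mean of 10 a library could also hold 0 reads. Of 14591 genes with a mean under 1000, 14472 (99.2%) had exactly 1 set and 119 had none; from 1000 to 2000, 948 of 1297 had 1 and 349 had several. The tolerance, the refinement, the allowance of 0 reads and the upper mean of 2000 were settled after looking at the file's residuals. The search was tested on simulated data. The deepest library had 1.73 times the size factor of the shallowest. Raw totals are not in the table.

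Exon lengths and places came from NCBIM37 with GENCODE vM1, matched by symbol for 95% of genes above 0, and promoters and miR-205 from RefSeq on GRCm38.p6. No coordinate was converted. The named genes are the 10 members and, in each other role, the 3 highest and 3 lowest that passed a mean of 10, except items withheld for evaluation, which are not reported here. Genes under that floor, Numb, Maml1, Maml2, Maml3 and Nrarp are named as well, some after their values were seen. Members, pathway lists and markers were chosen with earlier results of these data known. Alternatives were another gene length, background, tolerance, limit, scaling, match length, 3'UTR and floor, and leaving out each library. The work used Python 3.11.15, numpy 2.4.6, scipy 1.17.1, pandas 2.3.3 and matplotlib 3.10.9.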

Additional observations from a re-analysis of the deposited data

How the results depend on the processing

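The miR-205 match in a 3'UTR depended on its length: 1 of 10 genes held 7 bases, 4 held the 6-base form and 0 held the 8-base form, and every annotated 3'UTR in place of the longest again gave 1. The number of the 7 genes with an SD over 2 times the counting SD, which 47.5% of 6412 genes with a mean from 100 to 1000 also passed, was 5, also with division by the total of the genes with library counts, and ranged from 3 to 6 when each library was left out in turn. The number of genes with 1 set of library counts was 7, was 5 with a tolerance 3 times wider and 6 with a 10-fold limit, and was again 7 with a 1.5-fold limit, which was added after seeing the data. Of the 54 other pathway genes, 48 passed at a mean of 5 or more and 42 at a mean over 50. Of all 24421 genes, 10342 had a mean over 50. No paired analysis was possible because no column of the table carries a replicate number and no test was run. Depth limits Heyl, with 13 reads, and the means of Notch1, Jag1 and Jag2 are too high for their library counts to be told apart.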

Other observations

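Over 7361 genes with a mean of at least 100 and 1 set of library counts, the SD of the log2 ratio between 2 libraries was lowest for B and C at 0.26 and for A and D at 0.27. It was 0.31 for A and C, 0.33 for A and B, 0.34 for B and D and 0.35 for C and D. The log2 ratio between the highest and the lowest library was 0.50 for Rbpj, 0.66 for Notch3, 0.92 for Hey1 and 0.27 for Hes1. That ratio is the largest over all library pairs of 1 gene, whereas the SD is over genes for 1 pair, so they are unlike measures. Hey1, with a mean of 39.5, is not among the genes of the SD. The 3 melanocyte markers summed to 334 in A, 1929 in B, 663 in C and 818 in D, and the 3 suprabasal markers with library values, of 4, to 1896, 4551, 2461 and 2102, highest in B in both lists.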
